A study of Homo sapiens with 6 samples.

Results

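The mitogen-activated protein kinase (MAPK) cascades are held in check by inhibitors that the cascades themselves induce. A set of 10 such genes was examined, made up of the dual-specificity phosphatase genes DUSP1, DUSP2, DUSP4, DUSP5, DUSP6 and DUSP10, the Sprouty genes SPRY1, SPRY2 and SPRY4, and the Sprouty-related gene SPRED2. They were chosen by name for their role in feedback, with earlier results of these data known. Each matched 1 row among the 60461 genes of the deposited count table. All 10 passed the filter on low counts and were among the 18899 genes tested. Total RNA had been sequenced from the cultured breast cancer line MDA-MB-231, a triple-negative one, in 2 groups of 3 libraries. One group received an adenovirus carrying the coding sequence for the p110 isoform of ADAR1, an enzyme that edits adenosine to inosine in RNA, and the other a control adenovirus coding for eGFP. Both viruses were given at a multiplicity of infection of 200, the medium was renewed at 16 h, and RNA was taken at 48 h, so every cell population compared here had met an adenovirus. The promoter driving either transgene is not given in the sources used here, and cells without virus were not analysed here. Replicates were labelled biological with no word on how cultures were kept apart, and a p-value here is set against differences among these 6 libraries, which may be technical.

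In the ERK branch of MAPK signalling, growth factor receptors switch on RAS, and RAF, MEK and ERK kinases then relay the signal by phosphorylation, while the JNK and p38 branches answer mainly to stress and cytokines. MAPK phosphatases of the DUSP family remove the activating phosphates from the kinases, each with its own preference for ERK, JNK or p38 and its own place in the cell. Sprouty and SPRED proteins act further upstream, between the receptor and RAF, and since ERK activity raises the transcription of many of these genes, their transcripts are commonly read as a record of pathway output.

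Promoter sequences are shown for the called phosphatase genes that have an entry in the RefSeq table (GRCh38.p14), because those genes moved in opposite directions. Of the 10 genes, 8 matched the table, with 13 start sites in all, and DUSP4 and DUSP5 had none. Each run covers the 150 bases before a start site, 5′ to 3′ on the gene's strand, and capitals mark the cyclic AMP response element TGACGTCA, its TGACG core on either strand, or the TATA box letters TATAAA. The runs lie at chr5:172771196-172771345 for DUSP1, chr12:89352502-89352651 for DUSP6, and chr1:221742090-221742239 and chr1:221736901-221737050 for the upstream and downstream start sites of DUSP10, all on the minus strand.
DUSP1: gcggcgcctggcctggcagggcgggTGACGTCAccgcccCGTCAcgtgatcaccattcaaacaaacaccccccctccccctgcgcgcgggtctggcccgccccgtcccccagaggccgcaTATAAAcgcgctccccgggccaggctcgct
DUSP6: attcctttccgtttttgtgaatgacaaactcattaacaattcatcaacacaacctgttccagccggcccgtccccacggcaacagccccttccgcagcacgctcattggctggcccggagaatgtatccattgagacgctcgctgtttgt
DUSP10 upstream start: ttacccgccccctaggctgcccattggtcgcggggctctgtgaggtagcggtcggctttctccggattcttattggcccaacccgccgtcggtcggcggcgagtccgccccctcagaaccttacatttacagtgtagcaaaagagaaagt
DUSP10 downstream start: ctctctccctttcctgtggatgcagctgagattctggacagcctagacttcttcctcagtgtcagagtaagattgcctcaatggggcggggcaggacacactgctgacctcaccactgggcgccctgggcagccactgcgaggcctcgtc
The whole response element began 125 bases before the DUSP1 start, with a further core at 111 bases, another outside the printed run at 172 bases and a TATA box at 30 bases. Among all 35116 RefSeq windows of 300 bases (250 before the start and 50 after), 1.85% held the whole element on either strand and 24.6% held the core, which is part of the whole element. TATAAA on the gene's strand stood in 7.33%. Of the 8 matched genes, DUSP1 alone held the whole element, while the core also occurred at DUSP10, SPRY2, SPRY4 and SPRED2, and TATAAA at SPRED2. A gene was counted if any of its windows matched, so tallies of genes are not on the scale of the shares per window. The DUSP10 core straddles the downstream start and is left in lower case. An AP-1 motif, TGANTCA, was found in 7.71% of windows and, among the 8 genes, at SPRED2. Neither the serum response element nor the kappaB motif, searched on both strands and present in 1.29% and 5.91% of windows, was found in any of the 13. These are matches of letters and were not linked to the measurements by any test.

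Library totals ran from 72741235 to 99589278 counts, and single feedback genes held from 98 to 47391 counts per library. The targeted gene, ADAR, stood at 1006 ± 13.2 CPM (counts per 1000000 in the library, scaled by TMM) in the ADAR1 p110 libraries and 267 ± 8.67 CPM in the GFP libraries (SD, n = 3 each), as the labels say. Gene counts do not part transgene from endogenous transcripts. On the second principal component of log2 CPM, with 23.7% of the variance, ADAR1 p110 replicate 1 and GFP replicate 2 lay at 16.97 and 11.28 and the other 4 libraries between -8.46 and -5.72. Of 6 markers of the line, led by VIM at 2065 CPM, 2 were called higher with ADAR1 p110 (CAV1 and S100A4, named after their values were seen). The rest were not called, with log2 fold changes of 0.16 for VIM, 0.09 for AXL, 0.23 for KRT18 and -0.26 for CD44. The summed level of all 6 was 5702.9 to 5965.5 CPM with ADAR1 p110 and 5261.6 to 5467.0 CPM with GFP, without overlap, and its part in the results was not tested. ESR1 and PGR together stayed at or below 0.0827 CPM. Of 6 leukocyte markers CD3E was at 0 in all libraries and the summed level was 4.07 to 4.92 CPM with ADAR1 p110 and 4.45 to 5.51 CPM with GFP. Summed fibroblast markers, nearly all COL1A1 and LUM, were at 13.1 to 15.3 CPM with ADAR1 p110 and 16.9 to 17.8 CPM with GFP. For 2 of 3 endothelial markers, VWF and CDH5, the sums were 0.122 to 0.211 and 0.0691 to 0.193 CPM, PECAM1 not being matched.

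With ADAR1 p110, the feedback genes split by member rather than moving as a block. DUSP1, DUSP4 and DUSP6 rose by 46.1%, 18% and 21.6%, DUSP5 fell by 24.9% and DUSP10 fell by 17.2%, while DUSP2, the 3 Sprouty genes and SPRED2 did not pass the test. Thus 3 of the 10 genes were called higher and 2 lower by the edgeR quasi-likelihood test at an adjusted p under 0.05. Over all tested genes 1.95% were called higher, 2.96% lower and 4.91% in either direction. Among the 9501 tested genes with a mean of at least 10 CPM, 7.04% were called, against 5 of the 9 feedback genes at that level. Since the set was chosen with earlier results of these data known, these shares are a description and not an independent test. The median log2 fold change of the 10 genes was 0.04, beside 0.005 over all tested genes. In bulk RNA, fewer cells with a transcript and less of it per cell cannot be told apart. DUSP1 and DUSP5 were called in all 13 alternative analyses. The calls of DUSP4, DUSP6 and DUSP10 were lost in some fits with 1 library left out, as given with each gene. Those 3 calls were also lost with all 6 libraries when replicate number was fitted as a block (edgeR adjusted p = 0.105, 0.0633 and 0.0858).

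**Figure D1:**
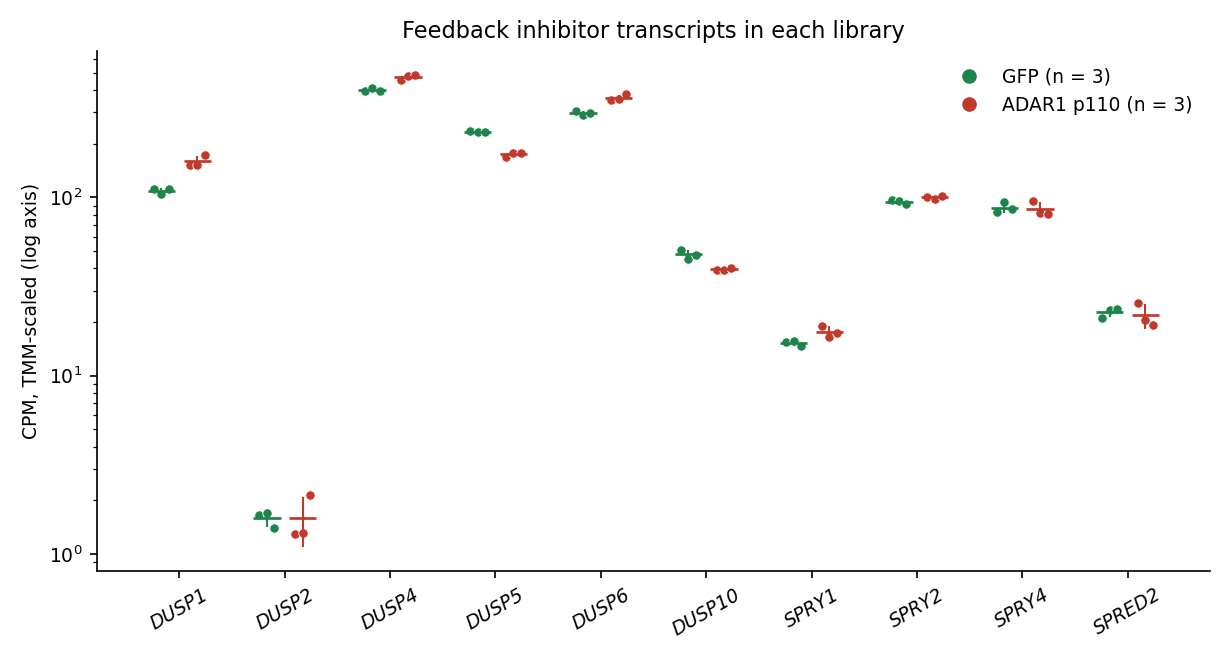
CPM (TMM-scaled, log axis) of the 10 feedback genes in each library, GFP in green and ADAR1 p110 in red, where horizontal bars are means of 3 libraries and vertical lines their SD. The 3 points of each group lie apart for DUSP1, DUSP4, DUSP5, DUSP6, DUSP10, SPRY1 and SPRY2 and overlap for DUSP2, SPRY4 and SPRED2.

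Among the inducible nuclear phosphatases, DUSP1 changed most. DUSP1 (ENSG00000120129.5_2, hg19 chromosome 5, 172195093 to 172198198, minus strand) encodes MKP-1, an immediate early phosphatase that acts on p38, JNK and ERK. Its level was 152.1, 152.7 and 172.8 CPM in ADAR1 p110 replicates 1, 2 and 3 and 111.2, 104.2 and 111.5 CPM in the GFP replicates. Every ADAR1 p110 library stood above every GFP library, and replicate 3 was the highest of its group. The means were 159.2 ± 11.8 and 109.0 ± 4.15 CPM (SD, n = 3 each), a log2 fold change of 0.55 (SE 0.062, 95% interval 0.41 to 0.68, edgeR adjusted p = 0.000513). Of the tested genes with at least 10 CPM, 1.09% had a change at least as large in either direction. Adjusted p ran from 4.67e-16 to 0.00496 over the alternatives, and the log2 fold change was 0.49 without ADAR1 p110 replicate 3. An antisense gene at the locus, AC022217.3, held 7 counts in all.

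DUSP4 (ENSG00000120875.8_2, hg19 chromosome 8, 29190581 to 29208185, minus strand), encoding the nuclear phosphatase MKP-2, rose less. It had 455.3, 481.0 and 485.2 CPM in the ADAR1 p110 replicates and 396.7, 412.1 and 395.5 CPM in the GFP replicates. The groups did not overlap, and the distance between them was more than the range within either. With means of 473.8 ± 16.1 and 401.4 ± 9.25 CPM (n = 3 each), the log2 difference was 0.24 (SE 0.049, edgeR adjusted p = 0.0181). The call was lost when ADAR1 p110 replicate 2 or 3, or GFP replicate 1 or 3, was left out (adjusted p = 0.0868, 0.0983, 0.0918 and 0.0983), the log2 fold change staying between 0.22 and 0.27 in all fits with 1 library left out.

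DUSP5 moved the other way. DUSP5 (ENSG00000138166.5_2, hg19 chromosome 10, 112257596 to 112271302, plus strand) encodes a nuclear phosphatase that acts on ERK and not on JNK or p38. Its level was 169.2, 178.1 and 178.4 CPM in the ADAR1 p110 replicates against 236.4, 231.5 and 232.1 CPM in the GFP replicates. The GFP libraries agreed closely, with a coefficient of variation of 1.15%, and all lay above the ADAR1 p110 libraries. Means of 175.2 ± 5.24 and 233.3 ± 2.68 CPM (n = 3 each) gave a log2 fold change of -0.41 (SE 0.047, 95% interval -0.52 to -0.31, edgeR adjusted p = 0.00057). Adjusted p ran from 3.09e-10 to 0.0114 over the alternatives. Processed pseudogenes of DUSP5 could take some of its reads, but DUSP5P1 held 0.425% as many counts and DUSP5P2 0.00383%.

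DUSP2, encoding the nuclear phosphatase PAC-1 known from activated immune cells, was close to silent in this line. DUSP2 (ENSG00000158050.4_2, hg19 chromosome 2, 96808905 to 96811179, minus strand) was covered by 98, 129 and 166 counts in the ADAR1 p110 replicates and 143, 123 and 138 counts in the GFP replicates, or 1.29, 1.31 and 2.15 against 1.65, 1.7 and 1.4 CPM. ADAR1 p110 replicate 3 stood above all other libraries, and replicates 1 and 2 below them. The difference was within that spread (edgeR adjusted p = 0.998). The 95% interval of the log2 fold change, -0.46 to 0.46, does not exclude a change of up to about that size in either direction. Without ADAR1 p110 replicate 3 the estimate was -0.28.

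DUSP6 is the cytoplasmic counterpart, encoding MKP-3, which is selective for ERK. DUSP6 (ENSG00000139318.7_2, hg19 chromosome 12, 89741009 to 89747048, minus strand) had 352.1, 356.8 and 378.8 CPM in the ADAR1 p110 replicates and 305.5, 290.2 and 298.5 CPM in the GFP replicates. All ADAR1 p110 libraries were higher, replicate 3 again being the top of its group as for DUSP1. The means were 362.6 ± 14.2 and 298.1 ± 7.68 CPM (n = 3 each), a log2 fold change of 0.28 (SE 0.050, 95% interval 0.17 to 0.39, edgeR adjusted p = 0.00862). The call was lost without ADAR1 p110 replicate 3 (adjusted p = 0.0547) or GFP replicate 3 (adjusted p = 0.0508). A lincRNA on the other strand, AC024909.3, held 0.316% as many counts.

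DUSP10 encodes MKP-5, which prefers JNK and p38 over ERK. DUSP10 (ENSG00000143507.17_2, hg19 chromosome 1, 221874766 to 221915518, minus strand) had 39.3, 39.3 and 40.4 CPM in the ADAR1 p110 replicates and 51.0, 45.2 and 47.4 CPM in the GFP replicates. The ADAR1 p110 libraries nearly coincided below the GFP libraries, which were more spread. Means of 39.6 ± 0.616 and 47.9 ± 2.93 CPM (n = 3 each) differed by -0.27 on the log2 scale (SE 0.059, edgeR adjusted p = 0.0244). The call was lost when ADAR1 p110 replicate 2 or 3, or GFP replicate 1 or 3, was left out (adjusted p = 0.106, 0.0857, 0.136 and 0.0908), at log2 fold changes of -0.28 to -0.22.

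The Sprouty genes, whose products dampen receptor tyrosine kinase signalling upstream of RAF, were not called. SPRY1 (ENSG00000164056.10_2, hg19 chromosome 4, 124317950 to 124324915, plus strand) had 19.0, 16.4 and 17.4 CPM in the ADAR1 p110 replicates and 15.4, 15.7 and 14.6 CPM in the GFP replicates. Those groups did not overlap, yet the log2 fold change of 0.21 (SE 0.074, 95% interval 0.05 to 0.37) had an unadjusted p of 0.0159 and an edgeR adjusted p of 0.15. SPRY2 (ENSG00000136158.11_3, hg19 chromosome 13, 80910111 to 80915086, minus strand) had 101.0, 98.4 and 101.9 CPM against 97.2, 95.1 and 92.2 CPM, a log2 fold change of 0.08 (SE 0.049, adjusted p = 0.415). Its groups also lay apart by a narrow margin, as did those of 24.0% of all tested genes, so 7 of the 10 feedback genes had groups that did not overlap, 5 higher and 2 lower. For SPRY2 the 95% interval, -0.03 to 0.19, reached a rise of at most 14.1%.

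For SPRY4 and SPRED2 the groups overlapped, and the estimates turned on single libraries. SPRY4 (ENSG00000187678.8_3, hg19 chromosome 5, 141689992 to 141706020, minus strand) had 95.3, 81.3 and 80.3 CPM in the ADAR1 p110 replicates and 82.3, 94.1 and 85.7 CPM in the GFP replicates. In each group its highest value was in the library set apart on the second principal component. The log2 fold change was -0.03 (SE 0.076, 95% interval -0.20 to 0.14, edgeR adjusted p = 0.894), or -0.05 (SE 0.043) without those libraries. SPRY4-AS1 and SPRY4-IT1 overlap the gene, on the other and the same strand, with 3.53% and 2.51% as many counts. SPRED2 (ENSG00000198369.9_3, hg19 chromosome 2, 65537985 to 65659771, minus strand) encodes a membrane protein that brings neurofibromin to RAS. It had 25.7, 20.5 and 19.2 CPM in the ADAR1 p110 replicates and 21.1, 23.4 and 23.7 CPM in the GFP replicates. The log2 fold change of -0.06 (SE 0.102, 95% interval -0.29 to 0.16, adjusted p = 0.822) moved to -0.20 without ADAR1 p110 replicate 1 (adjusted p = 0.121) and to 0.03 without replicate 3. The overlapping sense intronic gene AC012370.1 held 0.486% as many counts. With both libraries set apart on that component removed, the SPRED2 estimate was -0.17 (SE 0.072, adjusted p = 0.146).

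**Figure D2:**
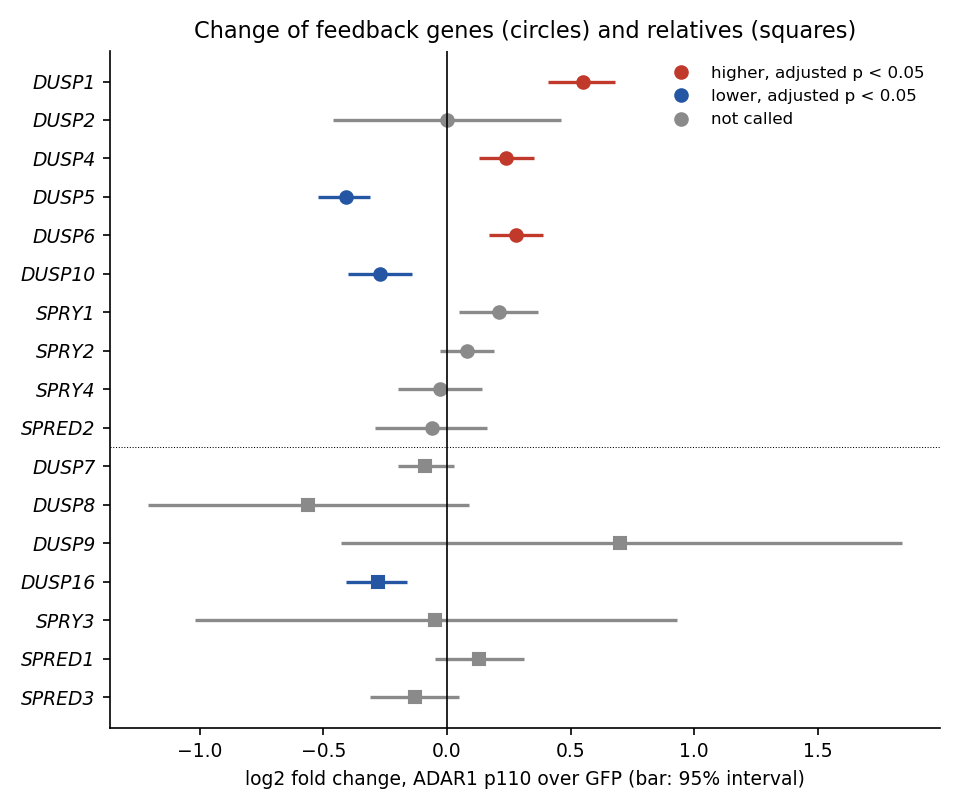
Horizontal axis, log2 fold change (ADAR1 p110 over GFP) with its 95% interval for the 10 feedback genes (circles) and 7 relatives (squares), called higher in red, called lower in blue and not called in grey. DUSP1 at 0.55 and DUSP5 at -0.41 mark the ends of the feedback genes, and DUSP16 at -0.28 is the called relative.

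Levels of different genes were compared per length, as RPKM (CPM per 1000 bases of the deposited gene length). In the GFP libraries DUSP5 led at 89.2 ± 1.02 RPKM, followed by DUSP6 at 64.4 ± 1.66, DUSP4 at 55.3 ± 1.27 and DUSP1 at 54.0 ± 2.05 RPKM (n = 3 each). The libraries of DUSP4 and DUSP1 overlapped, so their order was not resolved. SPRY2 came next at 31.2 ± 0.825 RPKM, then DUSP10 at 16.4 ± 1.01 and SPRY4 at 14.7 ± 1.03 RPKM, whose libraries also overlapped. SPRED2, SPRY1 and DUSP2 were lowest at 4.41 ± 0.280, 3.84 ± 0.145 and 0.819 ± 0.0813 RPKM. In the ADAR1 p110 libraries the top of this order changed, with DUSP1 at 78.9 ± 5.84 and DUSP6 at 78.3 ± 3.07 RPKM above DUSP5 at 67.0 ± 2.0 and DUSP4 at 65.3 ± 2.23 RPKM. Libraries overlapped within each of those pairs but not between them, though DUSP4 was below DUSP5 in each library. Overlaps were also seen between SPRY4 and DUSP10 and between SPRY1 and SPRED2.

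**Figure D3:**
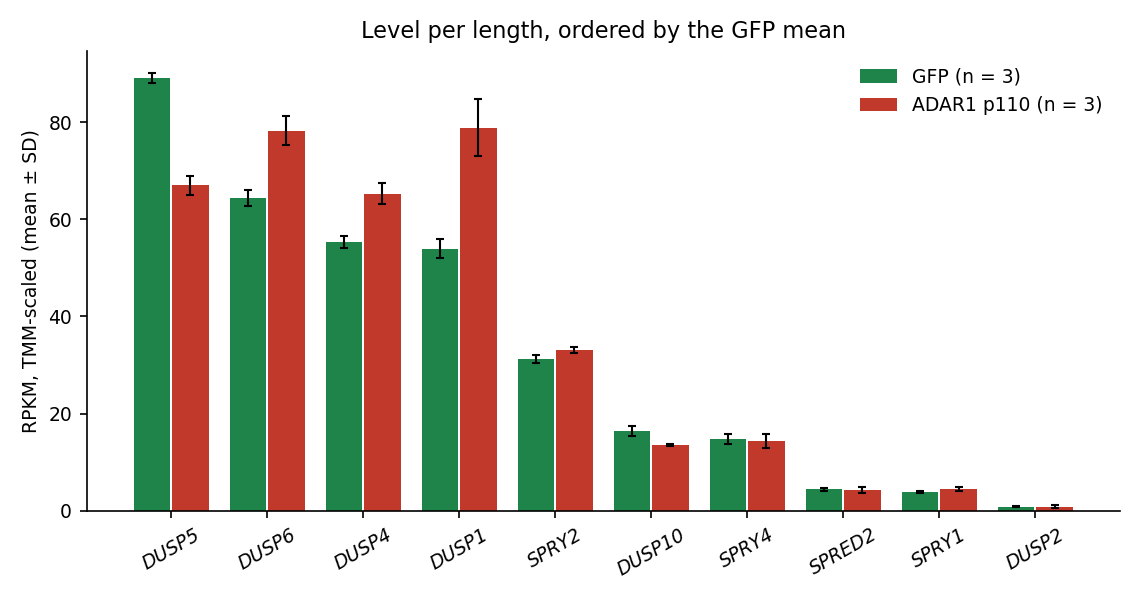
Mean RPKM (TMM-scaled) of the 10 feedback genes with SD as error bars (n = 3 per group), GFP in green and ADAR1 p110 in red, ordered by the GFP mean. DUSP5 is the tallest GFP bar at 89.2 RPKM, and DUSP1 and DUSP6 are the tallest ADAR1 p110 bars at 78.9 and 78.3 RPKM.

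The change of order can be read within each library, where it does not depend on the scaling. The ratio of DUSP1 to DUSP5 in RPKM was 1.16, 1.11 and 1.25 in the ADAR1 p110 replicates and 0.609, 0.583 and 0.622 in the GFP replicates. That of DUSP6 to DUSP5, the cytoplasmic against the nuclear ERK phosphatase transcript, was 1.18, 1.13 and 1.2 against 0.730, 0.708 and 0.726. Each ratio passed from below to above 1 with no overlap between groups. Where a ratio lies relative to 1 rests on the deposited gene lengths, which cancel when the groups are compared. DUSP4 to DUSP5 was 0.974 ± 0.00518 against 0.620 ± 0.0191 (SD, n = 3 each). DUSP5 made up 31.7% to 32.1% of the summed RPKM of the 6 phosphatase genes in the GFP libraries and 21.5% to 22.6% in the ADAR1 p110 libraries, while DUSP1 made up 18.7% to 19.7% and 25.1% to 27.0%. The sum itself was 280.1 ± 4.26 RPKM with GFP and 303.8 ± 12.4 RPKM with ADAR1 p110, and that of the Sprouty and SPRED2 genes 54.2 ± 1.34 and 56.2 ± 2.59 RPKM, the latter ranges overlapping. DUSP6 to DUSP10, an ERK-selective against a JNK and p38 phosphatase transcript, was 5.64, 5.71 and 5.91 against 3.77, 4.04 and 3.96. Every ratio here sets a gene called higher over one called lower, each with groups that did not overlap. The separation of the ratios thus follows from those values and adds no support of its own. These ratios and sums were described without a test.

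The members also differed in how far replicate libraries spread. DUSP2, with the fewest counts, had a coefficient of variation of 30.9% among the ADAR1 p110 libraries and 9.93% among the GFP libraries. SPRED2 had 15.9% and 6.36% and SPRY4 had 9.76% and 6.99%, so the genes with overlapping groups were also those with the widest spread in both groups. SPRY2, at 1.80% and 2.64%, was as tight as the called phosphatase genes, at a log2 fold change of 0.08. DUSP10 was tighter with ADAR1 p110 (1.55%) than with GFP (6.13%), the reverse of DUSP1 (7.4% and 3.81%). Among tested genes with at least 10 CPM, 2.38% changed at least as much as DUSP5 in either direction, 6.10% as DUSP6, 6.77% as DUSP10 and 8.98% as DUSP4.

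**Figure D4:**
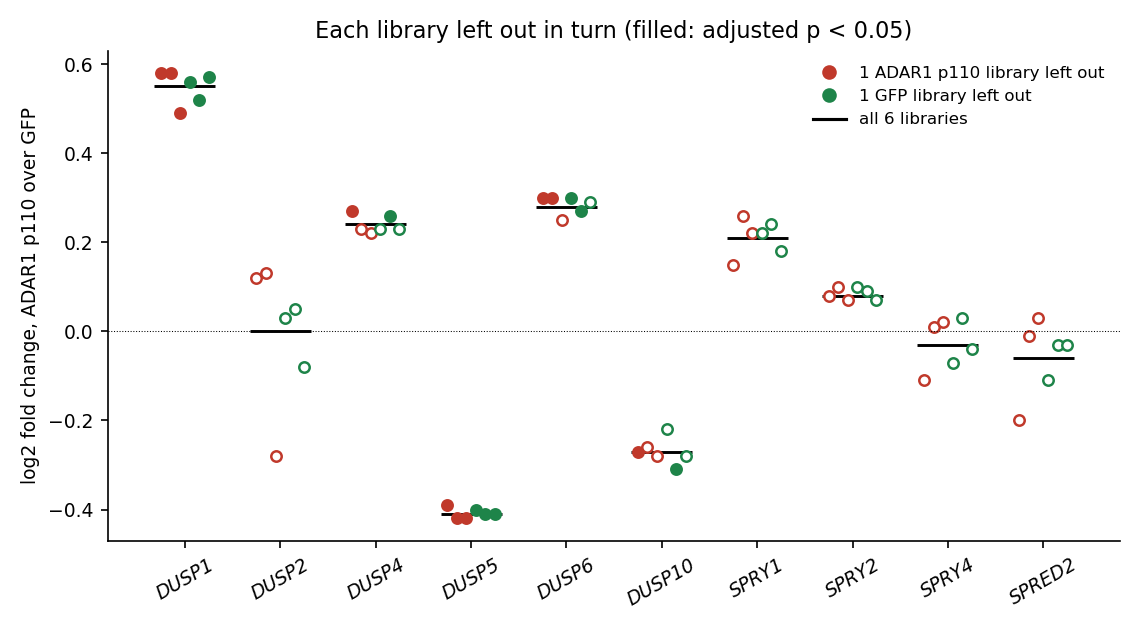
Log2 fold change (ADAR1 p110 over GFP) for the 10 feedback genes with all 6 libraries (black bar) and with 1 library left out (points, red for an ADAR1 p110 and green for a GFP library), filled where the edgeR adjusted p was under 0.05. All 6 points are filled for DUSP1 and DUSP5, and none for DUSP2, SPRED2 and the Sprouty genes.

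Relatives of the feedback genes were mostly not called. Counts called by edgeR in this list and those below stand beside 4.91% called among all tested genes, and 7.04% among those with at least 10 CPM. At an unadjusted p under 0.05, 1741 of all 18899 tested genes were higher and 1782 lower by edgeR. DESeq2 called 591 of all tested genes higher and 711 lower, and limma-voom 372 and 586. Of 7 other MAPK phosphatase, Sprouty and SPRED genes, 1 fell and none rose, with a median log2 fold change of -0.09. No further one rose at an unadjusted p under 0.05, or by DESeq2 or limma-voom, each of which called the same number. The 1 that fell was DUSP16, encoding MKP-7, which like MKP-5 prefers JNK and p38. It had 22.0, 21.8 and 21.4 CPM in the ADAR1 p110 replicates and 26.0, 26.1 and 27.2 CPM in the GFP replicates, without overlap (log2 fold change -0.28, SE 0.056, edgeR adjusted p = 0.0164). Its call was lost when ADAR1 p110 replicate 2 or 3, or GFP replicate 1 or 3, was left out (adjusted p = 0.0694, 0.0895, 0.0719 and 0.0953). DUSP7, a cytoplasmic ERK phosphatase, had a log2 fold change of -0.09 and SPRED1 one of 0.13, and neither was called. DUSP8, DUSP9 and SPRY3 had mean levels under 1 CPM in both groups. Among 16 other dual-specificity phosphatases and their relatives 1 rose and none fell, the pseudophosphatase gene STYX (0.38), with a list median of -0.03. At an unadjusted p under 0.05 there was 1 lower, while DESeq2 and limma-voom called none lower. Alternatives that ended the call of STYX included leaving out ADAR1 p110 replicate 3 or GFP replicate 1 or 3, and size factors in place of TMM.

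Of 17 other inhibitors of receptor and RAS signalling, 2 fell and none rose, at a median of -0.08, and none rose at an unadjusted p under 0.05 or by DESeq2 or limma-voom. They were LRIG1 and LRIG3, encoding transmembrane proteins, the first a negative regulator of the EGF receptor family. LRIG1 fell from 87.5 ± 1.76 to 69.1 ± 1.97 CPM (log2 fold change -0.34, edgeR adjusted p = 0.00286), and LRIG3 by 0.30 on the log2 scale. The call of LRIG3 was lost with library size alone and without ADAR1 p110 replicate 2 or any single GFP replicate.

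Among the lists of ligands, receptor kinases and ERK cascade genes, edgeR called 3 genes, all of them ligands. MAP3K8, whose product acts on MEK, was placed in the JNK and p38 list and was called lower. Of 17 growth factor ligand genes 14 were tested, of which 3 fell and none rose, at a median of -0.09, with none higher at an unadjusted p under 0.05 or by DESeq2 or limma-voom. HBEGF and EREG, ligands of the EGF receptor family, fell from 203.5 ± 10.5 to 143.6 ± 10.8 CPM and from 80.2 ± 3.71 to 57.2 ± 5.09 CPM (log2 fold changes -0.50 and -0.49, edgeR adjusted p = 0.00122 and 0.00233). LIF, a cytokine of the interleukin-6 family, fell by 0.41 on the log2 scale. Of 15 receptor tyrosine kinase genes 13 were tested and none was called by edgeR, DESeq2 or limma-voom, at a median of 0.01, with 3 higher and 1 lower at an unadjusted p under 0.05. The most abundant, AXL, had 1313 ± 35.4 against 1230 ± 55.8 CPM. Among 17 genes of the adaptors and the RAS, RAF, MEK and ERK kinases none was called by edgeR or limma-voom and 1 was lower by DESeq2, at a median of -0.02, with 2 lower at an unadjusted p under 0.05. NRAS, the most abundant of them, had 251.1 ± 9.52 against 263.7 ± 7.43 CPM. These are transcript levels, and kinase activity was not measured.

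Of 17 genes of the JNK and p38 cascade, 2 rose, 2 fell and 13 were not called, at a median of -0.06. DESeq2 called 2 higher and 3 lower, and 3 were higher and 5 lower at an unadjusted p under 0.05. MAP3K8, encoding the kinase TPL2 that acts on MEK, fell from 19.0 ± 0.539 to 11.4 ± 0.852 CPM (log2 fold change -0.74, edgeR adjusted p = 0.00019). MAP3K5, encoding the stress-activated kinase ASK1, fell by 0.42 on the log2 scale. MAP2K6, encoding a kinase that activates p38, rose from 1.74 ± 0.119 to 3.09 ± 0.393 CPM (0.83), and MAPKAPK2, a p38-activated kinase gene picked after its values were seen, rose by 0.36. These 4 calls were kept in all 13 alternatives.

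Genes commonly induced by ERK also held calls in both directions, with 4 of 19 higher and 6 lower by edgeR, DESeq2 and limma-voom alike, and a median of -0.02. Over all tested genes edgeR called 1.95% higher and 2.96% lower. At an unadjusted p under 0.05, 6 of the 19 were higher and 8 lower, beside 1741 and 1782 of all 18899 tested genes. FOS stood at 277.9 ± 22.7 CPM with ADAR1 p110 against 109.1 ± 4.43 CPM (log2 fold change 1.35, edgeR adjusted p = 4.18e-07). IER3, an early response gene, fell from 960.7 ± 20.2 to 496.7 ± 31.3 CPM, and the collagenase gene MMP1 fell by 0.72 on the log2 scale (edgeR adjusted p = 5.28e-05). Members picked after their values were seen were CCND1 (cyclin D1, 0.33), EGR1 (0.47) and PHLDA1 (0.26), which rose, and PLAUR (-0.41) and ETV4 (-0.27), which fell. HBEGF and LIF, already described as ligands, make up the rest of the 6. Calls were lost for EGR1 without GFP replicate 1, and for PHLDA1 and ETV4 when ADAR1 p110 replicate 3, or GFP replicate 1 or 3, was left out. Of 17 genes for ERK-linked kinases and transcription factors, 1 rose and 3 fell, at a median of -0.14. DESeq2 called 1 higher and 5 lower, and 2 were higher and 8 lower at an unadjusted p under 0.05. JUN rose from 169.0 ± 10.3 to 228.8 ± 20.8 CPM and ETS1 fell from 116.7 ± 3.42 to 79.6 ± 1.41 CPM (log2 fold changes 0.44 and -0.55). ATF2 and, picked after its values were seen, MKNK2 each fell by 0.23 on the log2 scale. Both of the latter calls were lost with library size alone and when ADAR1 p110 replicate 2 or 3, or GFP replicate 1 or 3, was left out, that of ATF2 also without GFP replicate 2. COL1A1 and LUM, which carry the fibroblast marker sums that were lower with ADAR1 p110, were not called, and their part in these results was not tested.

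**Figure D5:**
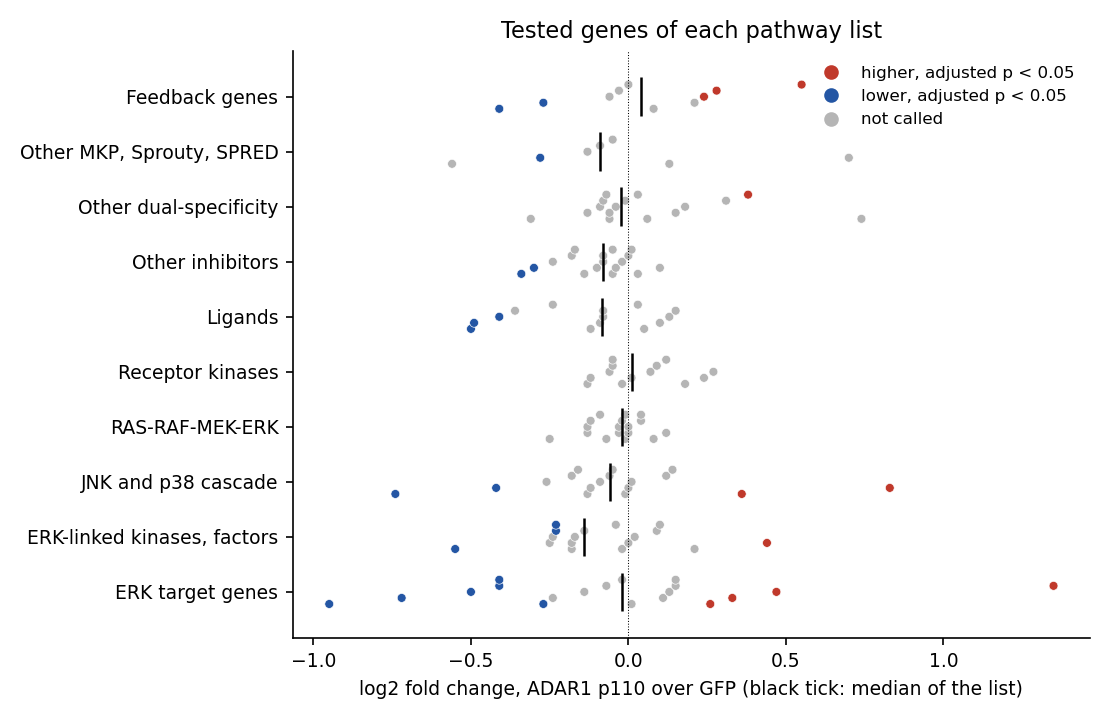
Horizontal axis, log2 fold change (ADAR1 p110 over GFP) for the tested genes of each list, called higher in red, called lower in blue and not called in grey, with the list median as a black tick. Feedback genes, JNK and p38 cascade genes, ERK-linked genes and ERK target genes hold calls on both sides of 0, and receptor kinases and the RAS-RAF-MEK-ERK list hold none.

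Over the 6 libraries, the profile of DUSP1, the feedback gene with the smallest p, was compared with those of 18889 other tested genes by the root mean square distance of centred log2(CPM + 0.5) values. The nearest were HR at 0.041, and BMP8B and ARTN at 0.046 each. ARTN, encoding the neurotrophic ligand artemin, had 26.7 ± 2.38 against 17.1 ± 0.994 CPM. HR and BMP8B had means under 2 CPM in both groups, where the added 0.5 compresses differences, and their fitted log2 fold changes were 1.11 and 0.80 beside 0.55 for DUSP1. With 6 libraries in 2 groups, any gene that differs by a like amount comes near.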

How the data were processed

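Total RNA libraries of 3 ADAR1 p110 and 3 GFP samples were compared. The authors deposited raw whole-number counts per gene, made with STAR 2.5.2a on hg19 and featureCounts 1.5.1, per the submitters' processing notes, which also name DESeq2 1.4.5 and R 3.1. Gene length in bases is another column of the deposited table, per the file headers. Whether reads were counted by strand, and how multiply aligned reads were treated, is not given in the sources used here, so overlapping antisense genes cannot be told apart with certainty.

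Genes were filtered with filterByExpr (minimum count 10), scaled by TMM and tested across all 18899 genes with glmQLFTest of edgeR 4.0.16 (R 4.3.3), fitting group alone, with Benjamini-Hochberg adjustment (threshold 0.05). The SE was the absolute log2 fold change over the square root of F, and 95% intervals used the t distribution. RPKM was computed from TMM-scaled CPM and the length column. The script was tested on simulated data, where edgeR recovered 14% of planted 1.2-fold and 52% of planted 1.5-fold changes. Planted genes were drawn at random from tested genes of all levels, so these shares need not hold for the feedback genes. A gene not called may still have changed, by amounts that its own 95% interval covers. False genes were 7.94% of the simulated calls by edgeR and 15.3% of those by DESeq2. The members, lists and tests were chosen with earlier results of these data known. The naming rule took ADAR, the 10 genes, up to 3 called genes of smallest p per list (the most abundant where none was called), the 3 profiles nearest to the called member of smallest p, and overlapping genes.

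Alternatives were DESeq2 size factors, library size alone, no filter, DESeq2 1.42.0, limma-voom (limma 3.58.1), a replicate block and leaving out each library. A fit without the pair that stood apart (ADAR1 p110 replicate 1, GFP replicate 2) was added after seeing the data. Replicate pairs differed by 8.70 to 40.2 in chi-square per degree of freedom, so none repeated another. A count of 0 allows up to 3 counts, or 0.0304 to 0.0414 CPM, for counting error only, since reads are not independent molecules. Promoters were RefSeq windows, and figures used matplotlib 3.10.9.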

Additional observations from a re-analysis of the deposited data

How the results depend on the processing

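Feedback genes called numbered 2 to 5 with 1 library left out (1 to 3 higher, 1 to 2 lower), beside 5 (3 and 2), and calls over all genes 396 to 1812 (100 to 795 higher, 296 to 1017 lower), beside 927 (368 and 559). Pathway genes called, beside 23, were 15 to 37. Deviations of same-numbered libraries from their group means correlated at -0.204, -0.153 and 0.0997, and those of unlike number at -0.257 to 0.326. With 3 libraries per group, such values cannot settle whether the replicate numbers pair the libraries. With the replicate block 508 genes were called (175 higher, 333 lower), and 2 feedback genes (1 and 1), DUSP4 (0.24), DUSP6 (0.28) and DUSP10 (-0.27) no longer passing at adjusted p of 0.105, 0.0633 and 0.0858. The block also ended the calls of DUSP16 (adjusted p = 0.0786), STYX (0.104), LRIG3 (0.0635), PHLDA1 (0.132), ETV4 (0.0922), ATF2 (0.12) and MKNK2 (0.15). Without a filter 1553 genes were called (742 higher, 811 lower), 1302 by DESeq2 (591 and 711), and 2605 were called (1181 and 1424, with 47 pathway genes) with ADAR1 p110 replicate 1 and GFP replicate 2 both left out, 5 feedback genes remaining called in each of these.

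Over fits with 1 library left out, log2 fold changes ran from 0.22 to 0.27 for DUSP4, 0.25 to 0.30 for DUSP6, -0.31 to -0.22 for DUSP10, -0.28 to 0.13 for DUSP2, -0.11 to 0.03 for SPRY4 and -0.20 to 0.03 for SPRED2. Uncalled genes changed sign in some of these: DUSP2 at 0.12 and 0.13 without ADAR1 p110 replicates 1 and 2 and at 0.03 and 0.05 without GFP replicates 1 and 2, SPRY4 at 0.01, 0.02 and 0.03 without ADAR1 p110 replicates 2 and 3 and GFP replicate 2, and SPRED2 at 0.03 without ADAR1 p110 replicate 3. DUSP2 was also at 0.02 with library size alone and at 0.17 without both libraries set apart, the cause of these shifts not being tested. Library size alone moved the median of all genes by 0.024 and called 510 higher and 479 lower. DUSP2 rests on 98 to 166 counts per library.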
